A study of Mus musculus with 16 samples.

Results

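The comparison described here is between cochlear cells of newborn mice that were sorted as carrying green fluorescent protein (GFP+) and cells sorted as lacking it (GFP-), both from explants kept in vehicle. It uses 4 of the 16 libraries of the series, chosen by their titles: the 2 P0 Cochlea DMSO GFP+ and the 2 P0 Cochlea DMSO GFP- libraries, where P0 is postnatal day 0. Organs of Corti of Lfng-EGFP mice, a transgenic line in which a bacterial artificial chromosome places GFP under Lfng regulatory sequence, were taken at birth and cultured for 24 hours in 0.04% v/v DMSO, the solvent control of the study. The medium also held EGF at 5 ng/ml and FGF2 at 2.5 ng/ml. The cultures were then dissociated with papain and sorted by fluorescence. Both fractions carried the transgene, the DMSO and the growth factors, so these are shared by every sample compared. The transgene limits the model, because it is described as labelling border, inner phalangeal, outer pillar and Deiters' cells and not inner pillar cells, and because the sort described in the study kept the brightest cells as GFP+ and did not collect cells of low fluorescence. The GFP- fraction was therefore a mixture of cells without detected GFP, from what was left after the lateral wall, Reissner's membrane and most of the modiolus had been taken off. The labels give a replicate number but do not say whether replicates came from separate cultures or animals, so p-values measure the spread between these samples, which may be technical. The same comparison at P5, postnatal day 5, with 4 libraries of the same make, was used only to show where the newborn difference was larger or smaller.

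Supporting cells surround the mechanosensory hair cells of the organ of Corti, hold them in place, clear potassium and glutamate around them and secrete part of the tectorial membrane. In the developing cochlea, Notch ligands on one cell activate Notch receptors on its neighbours, the receptor's intracellular part joins the DNA-binding protein RBPJ, and repressors of the Hes and Hey families then keep the neighbour from the hair cell fate. Supporting cells have left the cell cycle by birth, and for a short period some of them can still divide or convert when released from these signals.

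The 4 libraries differed in more than the cells they came from. The GFP+ libraries held 23637236 and 19492664 counts assigned to genes and the GFP- libraries 40008056 and 34869184. Reads outside annotated genes made up 50.05 and 58.7% of the records of the GFP+ libraries against 12.0 and 12.9% of the GFP- libraries, and mitochondrial ribosomal RNA took 28.1 and 23.9% of the GFP+ gene counts against 0.109 and 0.0441%. By the library numbers in the deposited names, the GFP- libraries belong to 1 run of numbers and the GFP+ libraries to another, so fraction and library run cannot be told apart in any value below. The GFP+ libraries also held a low level of counts in genes that cochlear cells are not known to use: of 311 olfactory receptor genes tested, 304 passed the limits as higher in GFP+, with a median of 0.839 and 0.867 CPM, counts scaled to a common library size, in the GFP+ replicates, and 297 and 288 of them had 0 counts in the GFP- replicates. Genes entered the tests only with enough counts, and most of these receptors had them in GFP+ alone. The number called higher was therefore largely set by that filter, and the levels are those of receptors that passed it. The 95th percentile of these receptors in GFP+ was 2.47 and 2.76 CPM. Levels of this size in a GFP+ library are therefore not read as expression, and the genes that lead each account below reached a mean of 10 CPM in the higher fraction. This limit does not allow for gene length. Per kilobase of exon, the receptors' 95th percentile in GFP+ was 2.38 and 2.6 CPM. Long genes could reach 10 CPM within that range, as Bdnf (2.01 CPM per kilobase), Muc4 (1.59) and Fsip2 (0.58) did. Myo3a (2.51) lay between these percentiles. What part the low-level counts had in the other calls was not tested. The GFP- replicates lay further apart than the GFP+ replicates. Among genes at 10 CPM or more, 1061 of 10599 differed over 2-fold between the GFP- replicates and 82 of 9190 between the GFP+ replicates.

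Of 17738 protein-coding genes tested, 3659 (20.6%) were higher and 3200 (18%) lower in GFP+ cells (38.7% in all). The limits for this were a fold change above 2 and an adjusted p below 0.01. The calls came from edgeR's quasi-likelihood test over all 21779 genes of any type with enough counts, of which 8917 (40.9%) passed. Of the protein-coding genes called higher, 1233 reached 10 CPM in GFP+, 1657 lay between 1 and 10 CPM and 769 were below 1 CPM. Among the genes called lower, 3055 reached 10 CPM in GFP-. Restricted to the 10993 protein-coding genes at 10 CPM or more in the higher fraction, 1233 (11.2%) were thus higher and 3055 (27.8%) lower (39% in all), with a median log2 fold change of -0.52. The split depended on the scaling. When TMM factors, the library scaling used, were set by protein-coding genes of 10 CPM or more, 4576 were higher and 2143 lower, and the median over all genes moved from 0.18 to 0.59 on the log2 scale. With DESeq2 size factors this median was 0.31. Leaving out either GFP+ library left 0 genes past the limits in the 4-library fit with edgeR, where 11006 and 10577 genes still had an unadjusted p under 0.05. In a fit of all 8 groups of the series the same omissions left 7180 and 6776 genes. In that fit the single remaining GFP+ library is assumed to vary like the other groups.

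**Figure D1:**
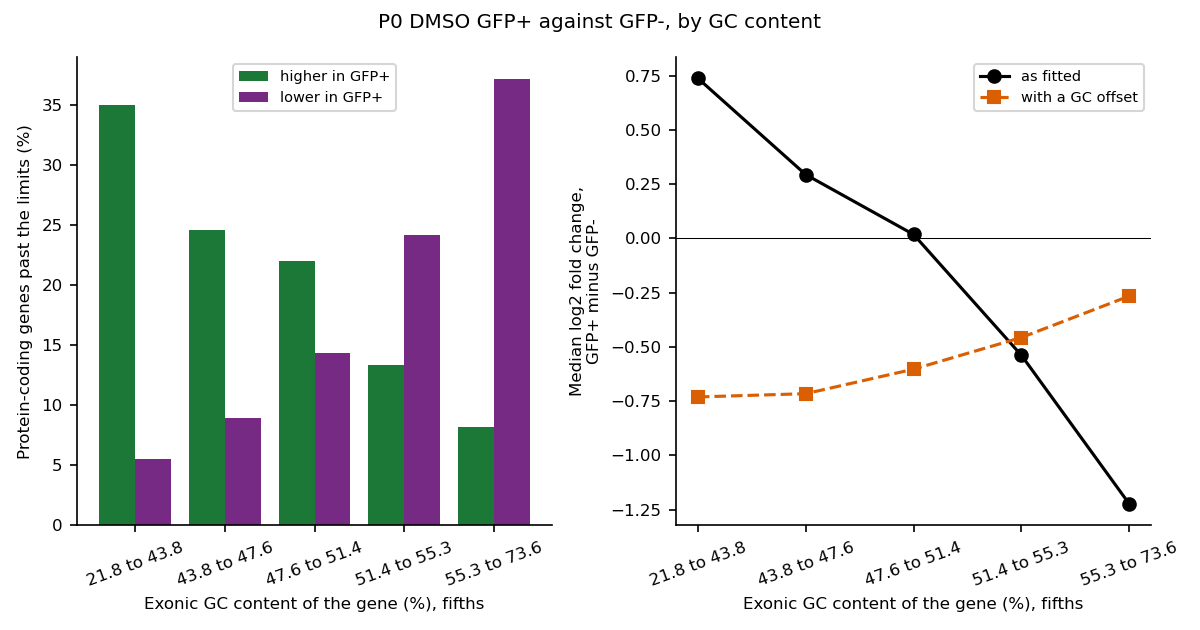
Left, share of protein-coding genes past the limits as higher or lower in P0 DMSO GFP+ cells, in 5 bins of exonic GC content (3547 or 3548 genes each). Right, median log2 fold change in the same bins, as fitted and with an offset for GC content. The share called higher falls and the share called lower rises with GC content.

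The fold change also followed GC content. In the bin of protein-coding genes with the lowest exonic GC content (21.8 to 43.8%), 1242 were higher and 197 lower, with a median log2 fold change of 0.74. In the bin with the highest GC content (55.3 to 73.6%), 289 were higher and 1319 lower, with a median of -1.22. The order was the same among genes at 10 CPM or more, where the medians went from 0.22 to -1.55. With an offset for GC content in each library, 2936 protein-coding genes (16.6%) were higher and 4731 (26.7%) lower, 43.2% in all. At 10 CPM or more these shares were 7.11% higher and 41% lower. Of the genes called in both fits, 2680 were higher and 2375 lower, and 0 changed direction. The plot by GC content shows that the offset left medians from -0.73 to -0.27, so it did not bring the bins to 0. Counts for gene lists below are read against the shares of 20.6% higher and 18% lower among all protein-coding genes, or 11.2 and 27.8% among those at 10 CPM or more. All lists were chosen with earlier results of these data known, so a count is not independent support for a class of genes. Where leaving out a GFP- library in the 4-library fit moved a list's count by over 1.5 times, the count is given with the list. Small moves of a count away from 0 are not all given, as for the higher members among cell cycle progression, bone and Schwann cell genes. A call that ended with the GC offset is marked where the gene is described.

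Genes that define supporting cells were higher in the GFP+ fraction. Of 16 markers, 12 rose and 0 fell, against 20.6 and 18% of all protein-coding genes, and the median log2 fold change of the list was 3.81 against -0.06 over all protein-coding genes tested. Without GFP- replicate 2, 15 rose and 1 fell. Lfng itself, which encodes a glycosyltransferase that modifies Notch receptors, was at 721 and 693 CPM in the GFP+ replicates and 10.4 and 22.2 CPM in the GFP- replicates. This is the gene whose regulatory sequence drives the reporter, and its log2 difference of 5.44 checks the labels of the fractions. Sox2, a transcription factor of the prosensory domain, was at 206 and 193 CPM in GFP+ and 38.3 and 40.7 CPM in GFP-, so that GFP- cells held it too. Prox1, a homeobox factor of pillar and Deiters' cells, had the largest difference of the list, with 1078 and 948 CPM against 4.15 and 1.87 CPM (log2 fold change 8.39 ± 0.52 (SE), adjusted p = 0.000487). S100a1, a calcium-binding protein of supporting cells, stood at 1522 and 1175 CPM against 14.7 and 58.6 CPM. The 4 markers that did not pass the limits were Aqp4, Gjb6, Gjb2 and Slc1a3. The connexin genes Gjb2 and Gjb6, whose channels couple supporting cells and also cells of the lateral wall and limbus, overlapped between the fractions: Gjb2 was at 438 and 248 CPM in GFP+ and 140.2 and 380.0 CPM in GFP-. Slc1a3, a glutamate transporter, was at 142 and 125 CPM in GFP+ and 340.4 and 214 CPM in GFP-, and with the GC offset it counted as lower. As these are bulk samples, fewer cells of a type and less RNA per cell cannot be told apart in any of these levels.

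**Figure D2:**
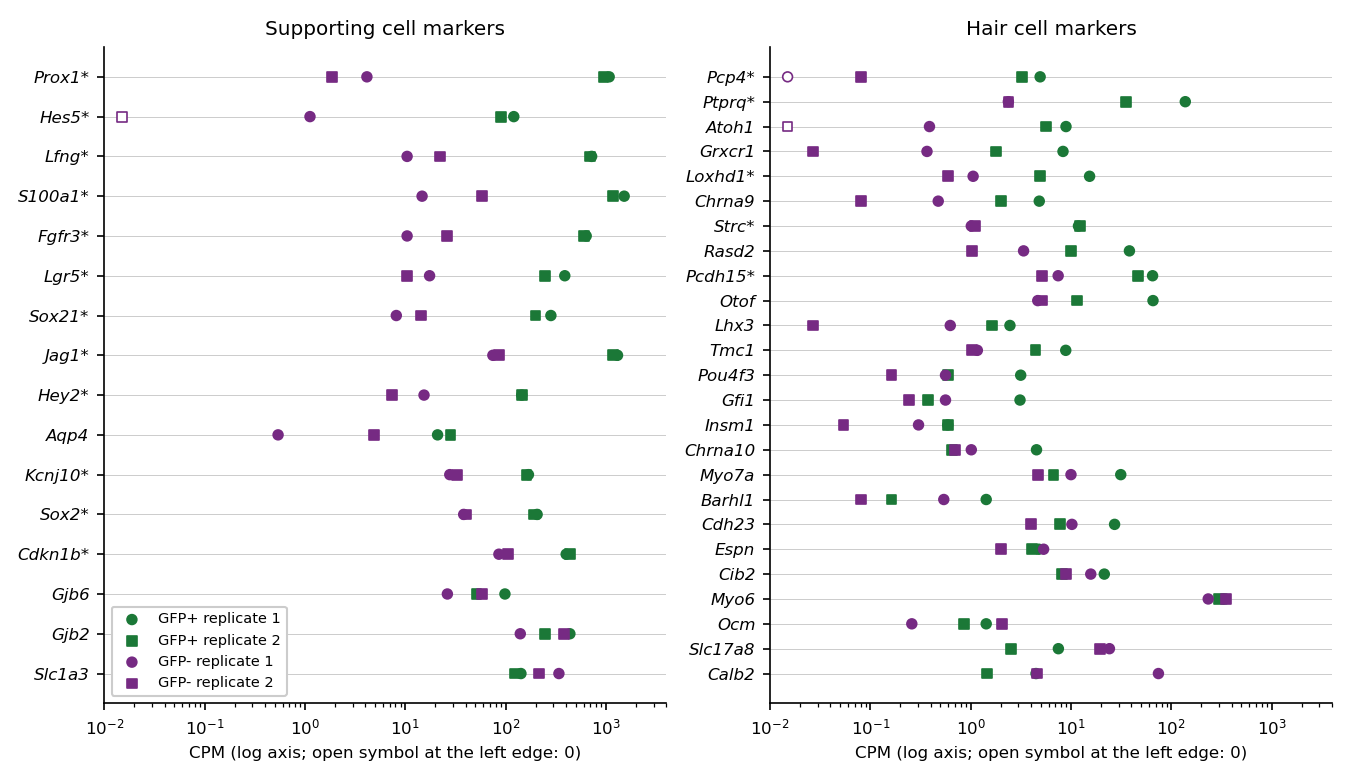
CPM of each supporting cell marker (left) and hair cell marker (right) in the 4 libraries, on a log axis. Circles are replicate 1 and squares replicate 2, green for GFP+ and purple for GFP-; an open symbol at the left edge is a library at 0, and an asterisk marks a gene past the limits. The GFP+ replicates lie close together for Lfng and Prox1 and far apart for Ptprq and Otof.

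Among Notch ligands and receptors, 2 of 11 rose and 3 fell, shares near those of all protein-coding genes. Jag1, the ligand of the supporting cells themselves, was at 1306 and 1172 CPM in GFP+ and 74.8 and 86.5 CPM in GFP- (log2 fold change 3.94 ± 0.27 (SE), adjusted p = 0.000593). Notch1, the receptor of the sensory epithelium, was at 539.9 and 461 CPM against 126 and 149 CPM (log2 fold change 1.86 ± 0.23 (SE), adjusted p = 0.00203). Both fractions held it, and each GFP+ library lay above each GFP- library. Notch2 was lower, with 24.3 and 21.0 CPM against 80.0 and 121 CPM, and so was Notch4, a receptor known from blood vessels, with 3.45 and 4.06 CPM against 25.9 and 37.4 CPM. Dlk1, an atypical ligand, fell by 5.51 on the log2 scale, from 31.8 and 91.2 CPM in GFP- to 1.18 and 1.52 CPM in GFP+. The hair cell ligands Dll1, Jag2 and Dll3 did not pass: Dll1 was at 2.81 and 2.17 CPM in GFP+ and 1.56 and 5.28 CPM in GFP-, and Jag2 at 7.84 and 2.93 CPM against 10.8 and 8.39 CPM.

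Among 15 modulators of the pathway, 2 rose and 5 fell, and 1 rose without GFP- replicate 1. The list's shares, 13.3% higher and 33.3% lower, are near the 11.2 and 27.8% of protein-coding genes at 10 CPM or more. Besides Lfng, the ubiquitin ligase gene Mib1, which activates ligands, was past the limits at 348 and 403 CPM against 157 and 192 CPM, but with the GC offset its log2 difference was -0.15 and the call ended. The relatives of Lfng went apart: Rfng was lower, at 8.63 and 8.13 CPM against 43.0 and 40.5 CPM (log2 fold change -2.32 ± 0.23 (SE), adjusted p = 0.00114), while Mfng, at 11.1 and 3.90 CPM against 1.71 and 1.41 CPM, did not pass. Numbl, a relative of the Notch inhibitor Numb, was at 18.8 and 20.3 CPM against 60.3 and 75.9 CPM, and Numb itself was at 59.7 and 53.5 CPM against 45.5 and 53.0 CPM and did not pass. Dner, a transmembrane protein of neurons that can bind Notch, was at 3.55 and 2.93 CPM against 21.6 and 21.1 CPM, and Dtx3, of the Deltex family, at 20.9 and 33.9 CPM against 251 and 257 CPM. Pofut1, which adds the fucose that Lfng extends, was also lower, at 19.5 and 26.5 CPM in GFP+ and 81.8 and 76.5 CPM in GFP-.

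Of 14 nuclear factors and target genes, 5 rose and 1 fell, against the shares of 20.6 and 18%, and all 5 that rose are targets or feedback genes of the pathway. Hes5, a repressor that keeps supporting cells from the hair cell fate, was at 121 and 90.3 CPM in GFP+ and at 1.12 and 0 CPM in GFP- (log2 fold change 7.47 ± 1.13 (SE), adjusted p = 0.00303). Hey2 was at 145 and 147 CPM against 15.4 and 7.42 CPM and Hey1 at 799.9 and 648 CPM against 38.0 and 94.4 CPM. Heyl, the third member of that family, was at 272 and 256 CPM against 91.8 and 72.5 CPM. Nrarp, a target that feeds back on the receptor, was at 78.2 and 73.7 CPM against 9.56 and 13.4 CPM (log2 fold change 2.73 ± 0.24 (SE), adjusted p = 0.000884). In the fit of all 8 groups Nrarp was not the only one of these 5 genes that no longer passed without GFP- replicate 1. Nor did all 5 pass in that fit without GFP+ replicate 1, or without GFP+ replicate 2. For these 5 genes the fractions did not overlap, which held with the GFP+ fraction on top for 40.1% of all protein-coding genes tested and with it below for 41.5%. Hes1, another repressor of the family, was at 27.4 and 21.3 CPM in GFP+ and 40.3 and 42.6 CPM in GFP-, did not pass and lay on the lower side. Rbpj was at 55.8 and 61.8 CPM against 108 and 92.1 CPM, also short of the limits, and was lower with the GC offset. Tle3, a corepressor, was lower, at 41.9 and 44.3 CPM against 98.1 and 118 CPM, a call that ended with the GC offset and when the scaling was set by genes of 10 CPM or more.

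Upstream sequences of Hes5, Hey2, Lfng and Nrarp are shown because these are genes of the lists known to respond to Notch that had a window in the table used. The windows of Jag1 and Notch1 were searched too and are not printed. They are the 250 bases before the RefSeq start site on build GRCm38.p6, in the direction of the gene, and capitals mark the core of the RBPJ binding motif, TGGGAA, or its reverse complement TTCCCA. Hey1, Heyl and Hes1 are named only. The motif was found in 21.6% of 32536 distinct upstream windows of this length, and 2 or more matches in 2.78%.
Hes5, chr4:154960673-154960922, plus strand: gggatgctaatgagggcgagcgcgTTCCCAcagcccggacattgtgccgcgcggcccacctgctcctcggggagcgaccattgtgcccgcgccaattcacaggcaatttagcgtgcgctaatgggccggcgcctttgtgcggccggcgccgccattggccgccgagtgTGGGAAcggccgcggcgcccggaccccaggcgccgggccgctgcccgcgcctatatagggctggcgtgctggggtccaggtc
Hey2, chr10:30842784-30843033, minus strand: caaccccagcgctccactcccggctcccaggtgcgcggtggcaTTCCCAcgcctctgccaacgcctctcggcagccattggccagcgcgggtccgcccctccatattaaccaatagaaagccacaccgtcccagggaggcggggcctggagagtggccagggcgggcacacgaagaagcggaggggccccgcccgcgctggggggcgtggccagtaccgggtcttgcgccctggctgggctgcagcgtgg
Lfng, chr5:140607091-140607340, plus strand: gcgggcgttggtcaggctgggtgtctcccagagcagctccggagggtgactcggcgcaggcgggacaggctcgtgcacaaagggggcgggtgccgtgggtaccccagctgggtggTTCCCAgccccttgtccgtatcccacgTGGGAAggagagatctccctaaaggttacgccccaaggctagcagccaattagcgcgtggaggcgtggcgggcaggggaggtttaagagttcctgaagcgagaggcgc
Nrarp, chr2:25180508-25180757, plus strand: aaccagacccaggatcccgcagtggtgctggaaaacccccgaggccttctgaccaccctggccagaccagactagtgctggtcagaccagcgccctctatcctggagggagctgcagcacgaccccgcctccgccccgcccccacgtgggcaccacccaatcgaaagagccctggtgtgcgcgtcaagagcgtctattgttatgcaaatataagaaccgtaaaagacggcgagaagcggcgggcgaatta
The Hes5 window held 2 matches, on the antisense strand from 226 and on the sense strand from 82 bases before the start. The Lfng window held 2, from 135 bases before the start on the antisense strand and from 108 on the sense strand. The Hey2 window held 1, from 207 bases before the start on the antisense strand. In the windows of Nrarp, Jag1 and Notch1 these letters did not occur, which says nothing about other sequence of these genes. A match is a description of the sequence and not a binding site. Matches were thus found in 3 of the 6 windows searched, and nothing is read from this about the size of the differences: Jag1, without a match, differed by 3.94 on the log2 scale and Hey2, with a match, by 3.68.

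Of 21 tested members of the list of otic transcription factors, 13 rose and 2 fell, against the shares of 20.6 and 18%. The median log2 fold change of the list was 1.87. The list was chosen with earlier results of these data known, so this count is not independent support for an otic class. Apart from Prox1, the largest positive difference was that of Tal1, better known as a factor of blood cells and vessels, at 165 and 161 CPM against 0.519 and 0.920 CPM (log2 fold change 7.83 ± 0.34 (SE), adjusted p = 0.000338), a level that the other GFP+ groups of the series did not share, as given with the comparison of ages. Rorb, a nuclear receptor, was at 114 and 95.6 CPM against 1.10 and 2.52 CPM and Emx2, a homeobox factor of the sensory epithelium, at 135 and 126 CPM against 3.91 and 1.46 CPM. The zinc finger genes Sall1, at 382 and 382 CPM against 6.36 and 23.5 CPM, and Sall3, at 342 and 321 CPM against 12.5 and 5.98 CPM, were far above the GFP- fraction as well. Gata3, whose loss in one copy causes deafness in humans, was at 386 and 361 CPM against 32.1 and 53.0 CPM. The early otic genes Eya1, Eya4 and Sox9 passed the limits by smaller margins, and each of these calls ended with the GC offset. Sox10 was at 87.8 and 95.6 CPM in GFP+ and 116 and 71.8 CPM in GFP- and did not pass. The genes that fell were Tbx1, a T-box factor of the otic vesicle and its mesenchyme, at 0.247 and 0.0542 CPM against 35.6 and 66.6 CPM, and Nr2f2, at 56.9 and 71.8 CPM against 170.2 and 138 CPM, which no longer passed when the scaling was set by genes of 10 CPM or more. Pax8, though called higher, was at 1.73 and 2.22 CPM in GFP+, within the range of the olfactory receptor genes.

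In the FGF pathway, 6 of 19 tested members rose and 6 fell, which is 31.6% each way. The shares were 20.6 and 18% over all protein-coding genes, and 11.2 and 27.8% over those at 10 CPM or more. Fgfr3, the receptor of pillar and Deiters' cells, was at 636 and 603 CPM against 10.4 and 26.1 CPM (log2 fold change 5.08 ± 0.50 (SE), adjusted p = 0.00115), and the 3 other receptors were on the opposite side. Fgfr1 was at 120.1 and 119 CPM in GFP+ and 343 and 639.9 CPM in GFP- (log2 fold change -2.04 ± 0.33 (SE), adjusted p = 0.00336). Fgfr2 was at 2.81 and 4.55 CPM against 71.3 and 190.3 CPM, and Fgfr4 at 3.01 and 3.09 CPM against 150.03 and 348 CPM, so that for these receptors the GFP+ level was a small part of the GFP- level. Of the ligands, Fgf10 was at 225 and 211 CPM against 21.9 and 15.2 CPM and Fgf3 at 32.1 and 16.9 CPM against 0.130 and 0.135 CPM. Fgf20, a ligand of the prosensory domain, was called higher at only 5.72 and 2.28 CPM. Fgf8, the ligand of inner hair cells, was not among the genes tested. The feedback inhibitor Spry4 was lower, at 7.75 and 8.18 CPM against 56.8 and 62.3 CPM, while Spry2, Spry1 and Dusp6 did not pass. The Etv factors, which respond to FGF signals, were split: Etv1 and Etv5 rose and Etv4 fell, and all 3 calls ended with the GC offset.

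In the Wnt pathway, 7 of 29 members (24.1%) rose and as many fell, shares near those of all protein-coding genes. Wnt7a, a ligand of the sensory epithelium, was at 114 and 121 CPM against 6.14 and 2.22 CPM (log2 fold change 4.81 ± 0.50 (SE), adjusted p = 0.00135). Lgr5, an R-spondin receptor that marks supporting cells able to divide, was at 389 and 248 CPM against 17.5 and 10.4 CPM, and the receptor gene Fzd4 at 258 and 233 CPM against 5.25 and 15.8 CPM. Sfrp1, a secreted inhibitor of Wnt ligands, was at 1945 and 1404 CPM in GFP+ and 122 and 145 CPM in GFP- (log2 fold change 3.65 ± 0.32 (SE), adjusted p = 0.000911). Of the genes that respond to the pathway, Axin2 was lower, at 11.5 and 11.5 CPM against 99.2 and 93.2 CPM (log2 fold change -3.06 ± 0.19 (SE), adjusted p = 0.000479), and so were the nuclear factors Lef1, at 3.60 and 5.31 CPM against 94.9 and 67.8 CPM, and Tcf7, at 7.60 and 10.8 CPM against 42.6 and 43.7 CPM. Wnt5a, a ligand of the non-canonical branch, was at 54.0 and 25.2 CPM against 211 and 277 CPM. Lgr4 and Lgr6 did not pass, with 97.9 and 85.9 CPM against 63.6 and 89.7 CPM for Lgr4 and 18.9 and 8.45 CPM against 14.5 and 15.9 CPM for Lgr6.

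**Figure D3:**
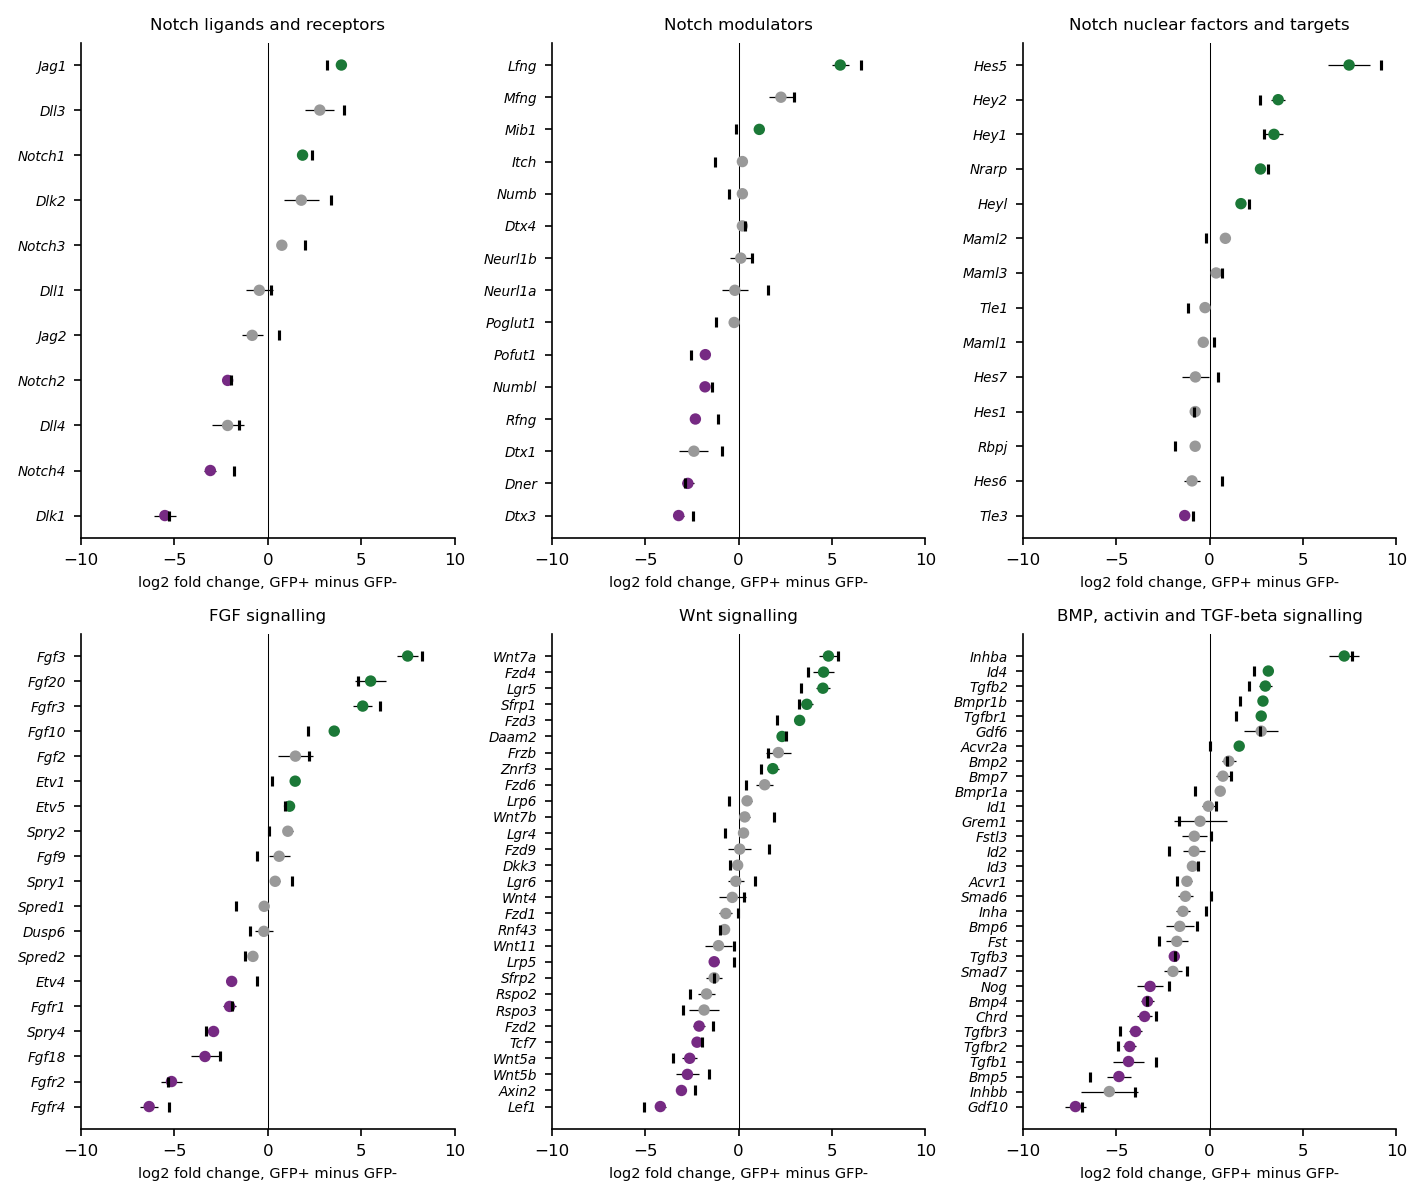
Log2 fold change (GFP+ minus GFP-) of the members tested in 6 pathway lists, with its standard error as a horizontal bar (n = 2 libraries in each fraction). Green points passed the limits as higher, purple as lower and grey points did not pass; the black tick is the value with a GC offset. Jag1, Hes5, Fgfr3, Wnt7a and Inhba are on the right and Dlk1, Fgfr4, Lef1 and Gdf10 on the left.

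Planar cell polarity genes, which align hair bundles across the epithelium, were split, with 4 of 15 (26.7%) higher and 6 (40.0%) lower. Over all protein-coding genes 20.6% were higher and 18% lower, and over those at 10 CPM or more 11.2 and 27.8%. The atypical cadherin genes Fat3, at 440.1 and 452 CPM against 10.3 and 5.09 CPM, Celsr1, at 288 and 219.8 CPM against 69.2 and 51.4 CPM, and Celsr2, at 281 and 252 CPM against 52.1 and 69.5 CPM, were higher. Vangl2, the core membrane protein of the pathway, was past the limits at 167 and 148 CPM against 83.1 and 68.5 CPM, but not in the fit of all 8 groups nor without GFP- replicate 2. Ptk7 was lower, at 42.8 and 35.4 CPM against 226 and 202 CPM. The Dishevelled genes Dvl1, at 14.1 and 12.8 CPM against 78.3 and 90.1 CPM, and Dvl2, at 14.8 and 13.7 CPM against 68.6 and 67.7 CPM, were lower as well, while Dvl3 did not pass. Scrib was lower at 26.9 and 25.6 CPM against 113 and 104 CPM, a call that ended with the GC offset.

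Of 31 genes of BMP, activin and TGF-beta signalling, 6 (19.4%) rose and 9 (29.0%) fell. Of all protein-coding genes 20.6% rose and 18% fell, and of those at 10 CPM or more 11.2% rose and 27.8% fell. Without GFP- replicate 1, 17 fell. Inhba, which encodes the subunit of activin A, was at 269 and 257 CPM against 0.541 and 3.06 CPM (log2 fold change 7.21 ± 0.81 (SE), adjusted p = 0.00167). Tgfb2 was at 1570.3 and 1344 CPM in GFP+ and 137 and 229.9 CPM in GFP-, the receptor gene Bmpr1b at 47.0 and 53.8 CPM against 6.42 and 7.44 CPM, and Id4, an inhibitor of helix-loop-helix factors, at 122 and 121 CPM against 11.6 and 15.9 CPM. Id1, Id2 and Id3 did not pass. The 2 receptors of TGF-beta were on opposite sides: Tgfbr1 was at 627 and 602 CPM against 84.9 and 95.5 CPM, and Tgfbr2 at 10.2 and 10.9 CPM against 144 and 262 CPM. Gdf10 had the largest fall, to 1.83 and 2.28 CPM from 168 and 426 CPM (log2 fold change -7.18 ± 0.57 (SE), adjusted p = 0.000738). Bmp5, at 2.52 and 2.98 CPM against 35.0 and 124 CPM, and Bmp4, at 2.52 and 2.49 CPM against 27.5 and 22.7 CPM, were lower too. For Tgfb1, at 1.43 and 1.03 CPM against 8.61 and 41.3 CPM, the call ended with the GC offset.

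Epithelial genes were higher in GFP+ cells as a group: 18 of 28 rose and 2 fell, against the shares of 20.6 and 18%, with a median log2 fold change of 1.73. Cdh1, the E-cadherin gene, was at 1800.0 and 1688 CPM against 82.6 and 134 CPM (log2 fold change 4.01 ± 0.36 (SE), adjusted p = 0.000956). The splicing factors Esrp1, at 205 and 186 CPM against 17.6 and 20.4 CPM, and Esrp2, at 25.8 and 26.4 CPM against 1.92 and 2.90 CPM, and the integrin gene Itga6, at 1008 and 1123 CPM against 119.8 and 61.5 CPM, followed it. Krt8 and Krt18, keratins of simple epithelia, passed with 106 and 68.8 CPM against 25.97 and 33.9 CPM and 99.3 and 79.3 CPM against 20.6 and 31.5 CPM. The 2 that fell were Cldn3 and Krt19, at 6.61 and 5.69 CPM against 15.5 and 19.1 CPM and 1.78 and 1.03 CPM against 6.51 and 9.42 CPM, and both calls ended with the GC offset, where Cldn3 was at 0.14 on the log2 scale. Among 15 genes of the tectorial membrane and otic matrix, 3 rose and 7 fell, and without either GFP- library 5 rose and 9 fell. Otog, which encodes otogelin of the acellular membranes, was at 997 and 924 CPM against 159 and 78.7 CPM, and Umodl1, a relative of uromodulin, at 78.8 and 51.8 CPM against 0.108 and 0.189 CPM (log2 fold change 8.77 ± 0.43 (SE), adjusted p = 0.000338). The tectorin genes were abundant in both fractions and did not pass: Tecta was at 2844 and 1866 CPM in GFP+ and 1078 and 439 CPM in GFP-, and Tectb at 7509.6 and 6324 CPM against 304 and 2965 CPM. For both, the GFP- replicates lay far apart. Coch, known from the spiral limbus and ligament, and Epyc, a small matrix proteoglycan, fell to 15.9 and 6.01 CPM from 185 and 1354 CPM and to 19.0 and 25.4 CPM from 425 and 1085 CPM. Col11a2 and the collagen IX genes were lower as well, and for Col11a2 the call ended with the GC offset.

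Genes for ion, water and glutamate handling were divided. Of 21 genes of gap junctions, potassium and water transport, 4 rose and 5 fell, near the 20.6 and 18% of all protein-coding genes. Without GFP- replicate 1, 5 rose and 8 fell, and without replicate 2, 10 rose and 5 fell. Kcnj10, the potassium channel of supporting cells, was at 169 and 162 CPM against 27.8 and 32.6 CPM (log2 fold change 2.45 ± 0.19 (SE), adjusted p = 0.000704), and Aqp11, a water channel, at 106 and 84.6 CPM against 7.48 and 6.47 CPM. The pump subunit Atp1b2 was at 245 and 206 CPM against 57.6 and 66.0 CPM. Aqp1, a water channel of fibroblasts and vessels, fell to 1.38 and 2.44 CPM from 268 and 559.8 CPM (log2 fold change -7.76 ± 0.55 (SE), adjusted p = 0.000623), and Gja1, the connexin 43 gene, to 3.55 and 4.23 CPM from 27.7 and 27.6 CPM. The cotransporter gene Slc12a2 was lower, at 180.3 and 198 CPM against 463 and 901 CPM, though not when the scaling was set by genes of 10 CPM or more. Among 18 glutamate and purine genes, 2 rose and 3 fell, and 4 and 4 did so without GFP- replicate 1 and 6 and 5 without replicate 2. Cysltr2, a receptor of cysteinyl leukotrienes, was at 223 and 196 CPM in GFP+ and 0.0649 and 0.0271 CPM in GFP- (log2 fold change 11.98 ± 0.36 (SE), adjusted p = 0.000338), which was among the largest differences of the whole comparison. P2rx7, Panx1 and Slc1a2 were lower, Slc1a2 with 11.1 and 14.1 CPM against 129 and 166 CPM. Glul, which makes glutamine from glutamate, was at 148 and 138 CPM against 104 and 148 CPM and did not pass.

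Of 29 neurotrophin and axon guidance genes, 8 (27.6%) rose and 7 (24.1%) fell, beside 20.6 and 18% of all protein-coding genes. Slitrk6, a membrane protein that supports the survival of cochlear neurons, was at 1795 and 1739 CPM against 7.74 and 19.5 CPM (log2 fold change 7.02 ± 0.58 (SE), adjusted p = 0.000807), and the adhesion molecule Nrcam at 1186 and 1181 CPM against 32.4 and 34.5 CPM. Ntf3, the main neurotrophin of the cochlea, was at 96.1 and 94.0 CPM against 1.86 and 4.03 CPM, and Bdnf at 14.6 and 8.94 CPM against 0.649 and 0.189 CPM. Per kilobase of exon the GFP+ mean of Bdnf was 2.01 CPM, within the range of the olfactory receptor genes. Ephb1, Sema3a and Cntn1 were higher as well, Sema3a with 242 and 174 CPM against 19.2 and 17.5 CPM. Slit2 was lower, at 21.0 and 22.2 CPM against 120.0 and 195 CPM, and so was its receptor gene Robo2, at 24.8 and 27.7 CPM against 121 and 88.1 CPM. The ephrin gene Efnb1 fell to 6.12 and 4.06 CPM from 53.7 and 39.0 CPM. Of 27 cytoskeletal genes, 8 (29.6%) rose and as many fell. Cep41, a microtubule protein listed in the files as Tsga14, was at 958 and 1002 CPM against 14.2 and 12.9 CPM (log2 fold change 6.18 ± 0.28 (SE), adjusted p = 0.000338), and Tppp, which promotes tubulin assembly, at 57.8 and 47.1 CPM against 6.03 and 3.46 CPM. Pls1, an actin bundler, was at 245 and 228 CPM against 30.6 and 24.5 CPM. Gsn and Fscn1, which cut and bundle actin, were lower, Gsn with 31.4 and 15.2 CPM against 300.1 and 332 CPM and Fscn1 with 29.6 and 25.3 CPM against 232 and 151 CPM.

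Cell cycle genes were lower in the GFP+ fraction: 21 of 25 progression genes fell and 0 rose, with a median log2 fold change of -3.37. Over all protein-coding genes 18% fell and 20.6% rose. Mki67, a marker of cycling cells, was at 10.9 and 10.3 CPM in GFP+ and 220.2 and 85.7 CPM in GFP-, and Top2a at 7.70 and 7.64 CPM against 209.8 and 76.5 CPM. Ccnb2 was at 1.43 and 0.975 CPM against 49.5 and 15.6 CPM (log2 fold change -4.75 ± 0.66 (SE), adjusted p = 0.0029), and Cdc20 at 0.740 and 2.44 CPM against 54.3 and 20.7 CPM. Several of these genes were in GFP+ at levels no higher than the olfactory receptor genes. Ccnd2 fell to 0.789 and 1.79 CPM from 46.2 and 33.0 CPM, whereas Ccnd1, at 63.4 and 37.9 CPM against 64.5 and 26.3 CPM, overlapped between the fractions. Each of the 4 progression genes named by the rule, Cdc20, Rrm2, Ccnb2 and Ccnd2, was higher in GFP- replicate 1 than in replicate 2. Of 11 inhibitors, 2 rose and 3 fell, and 1 and 4 did so without GFP- replicate 1 and 3 and 5 without replicate 2. Cdkn1b, the p27 gene that keeps supporting cells out of the cycle, was at 402 and 440.5 CPM against 85.9 and 105 CPM (log2 fold change 2.14 ± 0.22 (SE), adjusted p = 0.00128), but with the GC offset its log2 difference was 0.87 and the call ended. Rb1, at 108 and 88.1 CPM against 39.2 and 49.7 CPM, was likewise called higher only without the offset. Cdkn2c fell to 0.691 and 0.704 CPM from 16.4 and 8.53 CPM, and Cdkn1c and Cdkn1a did not pass.

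Markers of mesenchyme, bone, vessels, leukocytes and Schwann cells had 43.8 to 88.9% of their tested members lower in GFP+ cells, beside 18% of all protein-coding genes. Of 18 mesenchyme and fibroblast markers, 16 fell and 0 rose, with a median log2 fold change of -4.91, and the summed level of the list was 414 and 338 CPM in the GFP+ replicates against 11402 and 15565 CPM in the GFP- replicates. Col3a1, a fibrillar collagen, was at 27.8 and 45.3 CPM against 4161 and 3902 CPM (log2 fold change -6.78 ± 0.48 (SE), adjusted p = 0.000621), and Pou3f4, a factor of the otic mesenchyme, at 5.57 and 6.88 CPM against 362 and 478 CPM. Mgp, an inhibitor of mineralisation, was at 2.32 and 1.46 CPM against 158 and 2349.8 CPM, and for this gene, as for Spp1, GFP- replicate 2 lay several times above replicate 1. Of 25 genes of mesenchymal matrix, 19 fell and 1 rose (2 without either GFP- library), and the gene that rose, Thbs1, a matrix glycoprotein, was at 1043 and 867 CPM against 40.3 and 94.9 CPM. Of 11 bone and cartilage markers, 5 fell (8 without GFP- replicate 1), among them Spp1, the osteopontin gene, at 1.13 and 0.217 CPM against 177 and 1018 CPM (log2 fold change -9.75 ± 1.24 (SE), adjusted p = 0.00228). Col2a1 was high in both fractions, at 1627 and 1569 CPM against 7475 and 18767 CPM, and its call ended with the GC offset. Of 16 vessel markers, 7 fell and 1 rose, and of 14 macrophage and leukocyte markers, 7 fell (11 without GFP- replicate 1). Emcn, an endothelial mucin, was at 9.03 and 8.56 CPM against 443 and 335 CPM, and C1qc, a complement gene of macrophages, at 0.0493 and 0.0542 CPM against 6.47 and 24.8 CPM. Of 12 Schwann cell and satellite glia markers, 6 fell. Erbb3 and Fabp7, which are also found outside glia, did not pass. Of 14 neuron markers 1 was lower and 1 higher, a count that rested on single libraries: without GFP- replicate 2, 11 were lower and 1 higher, and without GFP- replicate 1, 2 were lower and 4 higher. Their summed level was 258 and 234 CPM in GFP+ and 577 and 188 CPM in GFP-, so the GFP- replicates fell on both sides of the GFP+ replicates. Nefm, a neurofilament, was at 115 and 1.95 CPM in GFP-, and Gap43, at 1.87 and 2.22 CPM against 45.9 and 23.6 CPM, was the marker that passed as lower. Isl1, which supporting cells also express, was at 133 and 157 CPM against 59.3 and 47.7 CPM, and its call ended with the GC offset. Of 12 melanocyte and stria markers 2 (16.7%) fell, near the share of all protein-coding genes. Of 7 red blood cell markers 2 fell and 1 rose, with a median log2 fold change of -0.03, and 2 rose without GFP- replicate 1.

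**Figure D4:**
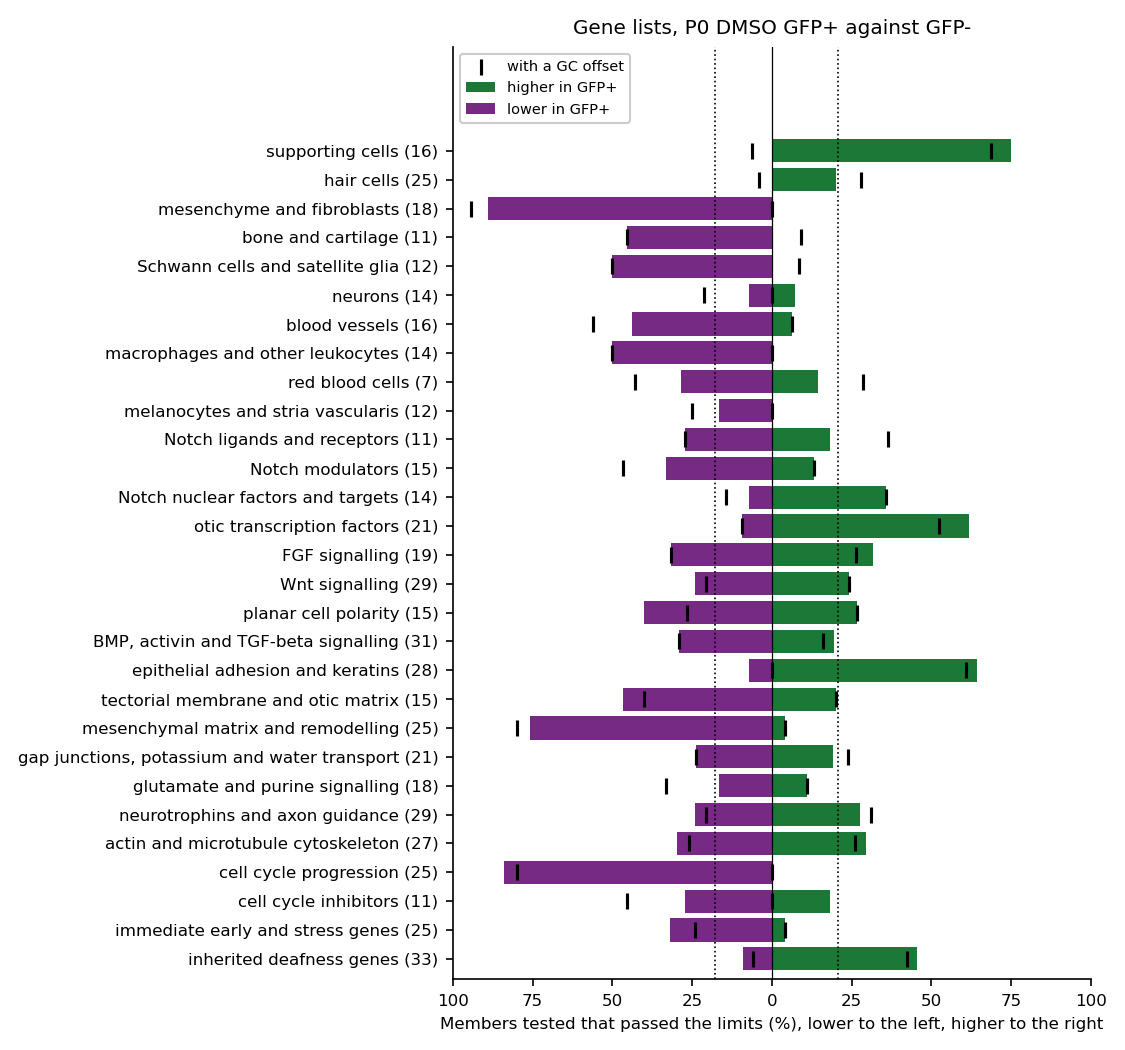
For each gene list, the percentage of tested members (number in parentheses) that passed the limits as higher (green, to the right) or lower (purple, to the left) in P0 DMSO GFP+ cells; black ticks give the same with a GC offset and dotted lines the shares of all protein-coding genes, 20.6% higher and 18% lower. Supporting cell, otic and epithelial lists extend to the right, and mesenchyme, matrix and cell cycle lists to the left.

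Hair cell genes varied between the GFP+ replicates. Of 25 hair cell markers, 5 (20.0%) rose and 0 fell, with a median log2 fold change of 2.35, so the share that rose was close to the 20.6% of all protein-coding genes. The count moved with the libraries and the fit: without GFP- replicate 1, 12 rose and 1 fell, and without replicate 2, 10 rose and 2 fell. With all 8 groups in the fit 12 rose and 2 fell, a number that was 9 without GFP+ replicate 1 and 16 without GFP+ replicate 2. With DESeq2 11 rose and 1 fell. The summed level of the list was 829 and 472 CPM in the GFP+ replicates and 399.8 and 414 CPM in the GFP- replicates, of which Myo6, an unconventional myosin also found outside hair cells, made up 345 and 299 CPM and 234 and 351 CPM. Ptprq, a phosphatase of the hair bundle, was at 138 and 35.2 CPM in GFP+ and 2.38 and 2.38 CPM in GFP- (log2 fold change 5.18 ± 0.69 (SE), adjusted p = 0.00263). Otof, needed for transmitter release by hair cells, was at 65.8 and 11.5 CPM against 4.67 and 5.17 CPM and did not pass. In both genes GFP+ replicate 1 was several times above replicate 2, while Lfng was at 721 and 693 CPM in the same libraries. Pcdh15 and Strc were closer, with 65.1 and 46.5 CPM against 7.46 and 5.17 CPM and 11.9 and 12.4 CPM against 1.02 and 1.11 CPM. The early factors were low throughout: Atoh1, which starts hair cell differentiation, was at 8.93 and 5.63 CPM against 0.389 and 0 CPM, so it was at 0 in one GFP- library, and Pou4f3 at 3.16 and 0.596 CPM against 0.562 and 0.162 CPM. Slc17a8, the glutamate transporter of inner hair cells, and Calb2 lay on the lower side, Slc17a8 with 7.499 and 2.55 CPM against 24.2 and 19.4 CPM. The part of hair cell RNA in the genes called higher was not tested.

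Of 33 genes of inherited deafness tested, 15 (45.5%) rose and 3 fell, with a median log2 fold change of 1.65, and 6 fell without GFP- replicate 1. Some of those that rose are known from hair cells, such as Myo3a, an unconventional myosin, at 28.4 and 11.5 CPM against 0.454 and 0.0812 CPM. Myo3a was higher in GFP+ replicate 1 than in replicate 2. Per kilobase of exon its GFP+ mean was 2.51 CPM, between the olfactory receptors' 95th percentiles of 2.38 and 2.6 CPM. Its rise is therefore not firmly read as expression. Others are epithelial, such as Grhl2, at 82.8 and 92.9 CPM against 8.52 and 8.63 CPM (log2 fold change 3.36 ± 0.20 (SE), adjusted p = 0.000443), and Tmprss3, a serine protease, at 146 and 141 CPM against 5.67 and 20.0 CPM. Ildr1 and Marveld2, proteins of tricellular junctions, were at 111 and 96.7 CPM against 10.8 and 13.4 CPM and 39.2 and 38.3 CPM against 4.91 and 4.38 CPM. Slc26a5, the prestin gene of outer hair cells, and Cabp2 were called higher at 4.88 and 5.69 CPM and 6.36 and 4.50 CPM in GFP+. Beside the counts of this list stand the shares of 20.6% higher and 18% lower among all protein-coding genes.

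Among protein-coding genes at 10 CPM or more, 27.8% were lower in GFP+ cells and 11.2% higher. Of 25 immediate early and stress genes tested, 8 (32%) fell, near that share, and 1 (4%) rose. These counts rested on single libraries: without GFP- replicate 1, 19 fell, without GFP- replicate 2, 6 rose and 9 fell, and with all 8 groups in the fit 12 fell. Nr4a3, an orphan nuclear receptor, rose, at 221 and 283 CPM against 1.19 and 1.65 CPM (log2 fold change 7.48 ± 0.31 (SE), adjusted p = 0.000338), while its relative Nr4a1 overlapped between the fractions at 131 and 89.5 CPM against 30.1 and 231 CPM. Fos was at 441 and 321 CPM in GFP+ and 194 and 1832 CPM in GFP- and did not pass. For Fos, as for Junb, at 5.67 and 4.06 CPM against 49.4 and 446 CPM, GFP- replicate 2 lay far above replicate 1, and the call for Junb ended with the GC offset. The summed level of the list was 1256 and 6567 CPM in the GFP- replicates and 2758 and 2238 CPM in the GFP+ replicates.

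Among all protein-coding genes that met the rule for naming, the 10 largest positive and 10 largest negative differences were examined without regard to lists. Of the 10 highest, 6 were predicted genes (Gm4297, Gm5934, Gm10718, Gm10717, Gm10801 and Gm10800), which have closely related copies, so that their counts are uncertain. The others were Cysltr2, Trhr, Fsip2 and Muc4. Trhr, the receptor of thyrotropin-releasing hormone, was at 168 and 191 CPM against 0.411 and 0.0541 CPM (log2 fold change 9.49 ± 0.65 (SE), adjusted p = 0.000585). Muc4, a membrane mucin, was at 24.2 and 13.2 CPM against 0.0216 and 0.0271 CPM. Fsip2, a gene of the sperm tail, was at 11.7 and 12.8 CPM in GFP+ and had 0 counts in both GFP- libraries. It was thus at least 340.1-fold higher, taking 3 counts over the GFP- group as the floor. Per kilobase of exon, however, its GFP+ mean was 0.58 CPM, below the olfactory receptor medians of 0.793 and 0.858 CPM in the GFP+ replicates. The Muc4 mean was 1.59 CPM per kilobase, under the receptors' 95th percentiles of 2.38 and 2.6 CPM. Neither level is therefore read as expression. The 10 lowest were Spp1, Mgp, G0s2, Bcl3, Tbx1, C1qc, A230050P20Rik, Htra1, Zic2 and Aqp1. Zic2, a zinc finger factor, was at 0.839 and 1.08 CPM against 217 and 212 CPM (log2 fold change -7.80 ± 0.26 (SE), adjusted p = 0.000338), and Htra1, a secreted protease, at 1.48 and 1.84 CPM against 184 and 597 CPM. Bcl3, a regulator of NF-kappa B, was at 0.0493 and 0 CPM in GFP+ and 9.86 and 21.5 CPM in GFP-.

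Whether the newborn difference was larger or smaller than that at P5 was tested in a fit of the 8 DMSO libraries, as the P5 difference minus the P0 difference. Of 18274 protein-coding genes, 7 (0.0383%) passed the limits, and of 23257 genes of any type, 8 (0.0344%). With edgeR, 2507 genes had an unadjusted p under 0.05, and the DESeq2 Wald test called 306. Tal1 had a log2 fold change between the fractions of 7.77 at P0 and 0.12 at P5 (difference -7.65 ± 0.58 (SE), adjusted p = 0.00324). Its levels in the P0 GFP+ replicates of this fit were 158 and 152 CPM, and those at P5 1.21 and 0.540 CPM, with 0.639 and 0.955 CPM in P5 GFP-. Pdzk1ip1, a small membrane protein, went from 7.61 at P0 to 2.19 at P5 (difference -5.42 ± 0.33 (SE), adjusted p = 0.00183). Syt6, a synaptotagmin, went from 6.88 to 1.38, with GFP+ levels of 347 and 303 CPM at P0 and 9.34 and 6.31 CPM at P5. Slc7a5, a transporter of large amino acids, changed sides, from 2.08 at P0 to -2.12 at P5 (difference -4.19 ± 0.32 (SE), adjusted p = 0.00324). The 3 genes whose difference was above that at P0 were Inpp5j, an inositol phosphatase, from 2.16 to 6.92, Tmem229a, from 1.16 to 4.09, and Cntfr, the receptor of ciliary neurotrophic factor, from -5.16 to -2.05. For Tmem229a the P0 call itself ended with the GC offset.

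The library numbers bear on these values, because the P5 GFP+ libraries carry a series of numbers different from both P0 fractions, so age and library run cannot be told apart within GFP+ cells. The P0 GFP+ libraries of cultures given DAPT, an inhibitor of the enzyme gamma-secretase that activates Notch, carry the same series as the P5 GFP+ libraries. In those Tal1 was at 0.107 and 0.155 CPM, against 153 and 151 CPM in the vehicle libraries on the same scale, with all groups scaled together. Pdzk1ip1 was at 0.908 and 1.03 CPM against 153 and 134 CPM. These neighbours on chromosome 4, Tal1 at 114729031 to 114744360 and Pdzk1ip1 at 114761313 to 114766504 on the plus strand of build mm9, were thus high in the P0 DMSO GFP+ libraries and under 6 CPM in the other 14 libraries. Syt6 was at 14.6 and 29.6 CPM, between the P0 and P5 vehicle levels in GFP+. Slc7a5, at 49.97 and 42.9 CPM, Inpp5j, at 47.4 and 39.5 CPM, and Tmem229a, at 107 and 106 CPM, were likewise between those levels. Cntfr was at 1.98 and 2.64 CPM, close to the vehicle libraries of the same age. The parts of the library run and of DAPT in these values cannot be told apart here. The study's cells sorted without culture were not analysed here.

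**Figure D5:**
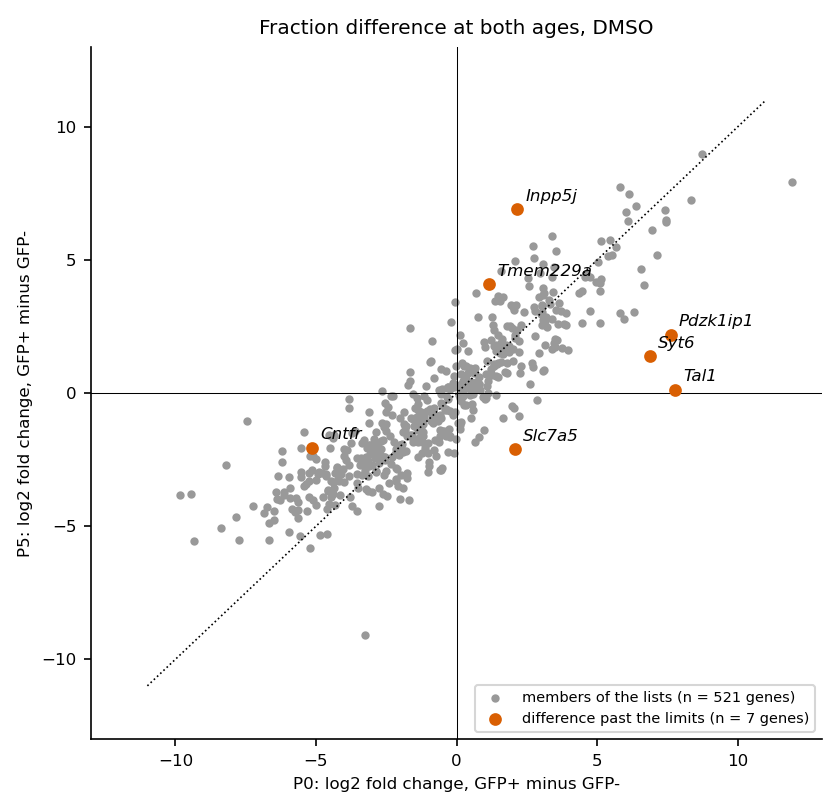
Log2 fold change between GFP+ and GFP- cells at P0 (horizontal) and P5 (vertical) from the fit of the 8 DMSO libraries, for 521 genes of the lists (grey) and the 7 protein-coding genes whose difference between ages passed the limits (orange, Tal1 also being a list member). The dotted line marks equal differences; Tal1 lies near 0 at P5 and Slc7a5 below it.

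Tal1 was the only list member, of 521 tested, whose difference between ages passed in this fit. Hes5 was at 7.44 at P0 and 6.41 at P5 as log2 fold changes, Lfng at 5.37 and 5.16, and Fgfr3 at 5.02 and 4.93. Hey1 was at 3.39 and 1.66, with a difference of -1.73 ± 0.55 (SE) and an adjusted p of 0.306 from edgeR. Cdh1 was at 3.95 and 1.61, with a difference of -2.33 ± 0.43 (SE) and an adjusted p of 0.0991. These p-values do not show that the ages were alike. The biological coefficient of variation at P0 was 0.431 in GFP- cells and 0.255 in GFP+ cells. At P5, 11.8% of protein-coding genes were higher and 17.8% lower in GFP+ in this fit, and of the supporting cell markers 13 of 16 were higher and 0 lower. Of the 25 cell cycle progression genes, 19 were lower at P5, and of the 28 epithelial genes 14 were higher. The P0 shares and list counts given earlier came from the 4-library fit, so they are not compared with these. At P0 the DMSO GFP+ libraries had counts in 30639 and 31345 genes, and at P5 in 25938 and 26523. The part of this in the shares was not tested.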

How the data were processed

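RNA was taken from GFP+ and GFP- cells sorted from cultured cochlear explants, and libraries of low input were pre-amplified, per the study's methods. The authors aligned reads with TopHat (version 1.4.0 in the submitters' processing notes) to mouse build mm9 and counted them per gene with HTSeq, and the deposited values are raw whole-number counts per Ensembl gene. The counting mode and strand setting are not given in the sources used here, so overlapping and near-identical genes are uncertain. Rows of reads that belong to no gene were left out of totals and tests, and their share is given with the libraries.

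Groups came from the sample titles. Genes were typed with GENCODE M1 (build NCBIM37, the same assembly as mm9). Counts were fitted with edgeR 4.0.16 (R 4.3.3) by the quasi-likelihood F test, after filterByExpr with a minimum count of 10 and a minimum total of 15 and TMM scaling. P-values were adjusted by Benjamini-Hochberg over all genes tested, with limits of 0.01 and 2-fold. A standard error is the log2 fold change over the square root of F. CPM are scaled by TMM. The difference between ages is the interaction of age and fraction over 8 libraries. The GC offset is a lowess curve (span 0.3) of each library's deviation on exonic GC content. DESeq2 1.42.0, other scalings, filters and limits, a replicate block, thinning to equal depth and leaving out libraries were tried, and the fit was tested on simulated counts.

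The samples, the 29 gene lists (521 distinct members tested) and the tests were chosen with earlier results of these data known. Named by rule were Lfng, Hes5 and Sox2, the 10 largest differences in each direction, and up to 4 per list and direction, among protein-coding genes that passed both limits, averaged 10 CPM or more in the higher fraction and did not overlap between fractions, and, for the difference between ages, up to 5 in each direction. List members named beyond this rule were chosen after their values were seen. Older symbols of the files were matched to 7 list names. No list test was run. A few list members are counted but not reported by name here. Depth limits low genes: 3 counts over a fraction is the floor used where a fraction had none. Upstream sequences are from RefSeq (GRCm38.p6), and no coordinates were converted between builds.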

Additional observations from a re-analysis of the deposited data

Results flagged for a closer look

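The difference between GFP+ and GFP- cells changed from P0 to P5 for 7 protein-coding genes, by the interaction term of edgeR's quasi-likelihood fit over the 8 DMSO libraries. The P5 difference was below the P0 difference by -7.65 for Tal1, -5.49 for Syt6, -5.42 for Pdzk1ip1 and -4.19 for Slc7a5 on the log2 scale. It was above it by 2.93 for Tmem229a, 3.11 for Cntfr and 4.75 for Inpp5j. Of the 16 libraries of the series, the 2 P0 DMSO GFP+ libraries were those in which Tal1 and Pdzk1ip1 exceeded 6 CPM. Without either P0 GFP+ library, 0 genes passed in this fit with edgeR, where 1690 and 1997 still had an unadjusted p under 0.05.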

How the results depend on the processing

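Of 8917 genes past the limits at P0, 0 were called in the opposite direction under any alternative. With the GC offset Cldn3 turned to 0.14, Mib1 to -0.15 and Rb1 to -0.37 on the log2 scale, without a call, and with the replicate block and the GC offset together to 0.16, -0.15 and -0.37; the offset itself ended these calls. The labels do not say whether same-numbered libraries of the fractions were paired. Their deviations had a correlation of 0.004 across genes, which with 2 replicates in each fraction cannot decide this. The replicate block gave 6575 genes at P0 and 7 for the difference between ages. The block with the GC offset gave 5742 genes at P0, 1271 protein-coding higher, and 17 between ages. A fold limit of 4 left 1715 protein-coding genes lower, by its own construction. Leaving out single libraries gave from 0 to 9170 genes, from 0 to 3525 protein-coding higher and from 0 to 4172 lower; the 0 came without either GFP+ library, and 4166 lower genes without GFP- replicate 1. With all 8 groups in the fit these omissions left 2312, 2381, 2066 and 2227 protein-coding genes higher (without GFP+ 1, GFP+ 2, GFP- 1 and GFP- 2). Between ages, 8 genes became 92 with no filter on low counts, 306 with the DESeq2 Wald test, 58 with all 8 groups in the fit, 18 with the GC offset and 46 at an adjusted p limit of 0.05, and leaving out single libraries gave from 0 (P0 GFP+) to 94 (P0 GFP- replicate 1), or 20, 125, 48 and 14 with all 8 groups without replicate 1 of P0 GFP+, P0 GFP-, P5 GFP+ and P5 GFP-, up to 129; the cause was not tested. TMM over protein-coding genes of 10 CPM or more was chosen after seeing the data. Of 168 genes named by the rule, all kept their call with DESeq2, 166 with all 8 groups, 166 with the block and 153 with the GC offset. With all 8 groups in the fit, 616 of 672 values kept it when a library was left out; Coch, Gja1, P2rx7, Robo2, Slc1a2, Ccnd2, Cdkn2c, C1qc and Junb are among those that did not. In the 4-library fit, Mib1 and Rb1 lost it without GFP- replicate 1 and Vangl2 without GFP- replicate 2. Depth limits what can be said of genes under 10 CPM in GFP+, where olfactory receptor genes have counts.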

Other observations

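Gene families outside the lists were counted against the same background of 20.6% of protein-coding genes higher and 18% lower in GFP+ cells. Among those at 10 CPM or more, 11.2% were higher and 27.8% lower, with a median log2 fold change of -0.52. The families were not split by level. The shares lower for cytosolic and mitochondrial ribosomal protein genes and proteasome genes are near 27.8%, so they are not read as particular to these families. Cytosolic ribosomal protein genes had 4 of 100 members higher and 31 lower, with a median log2 fold change of -0.78. Of 87 nuclear-encoded subunits of the respiratory chain, 1 was higher and 37 lower (median -1.04), and of 76 mitochondrial ribosomal protein genes 1 was higher and 19 lower. Proteasome subunit genes had 12 of 39 lower and 0 higher, a share that was 26 of 39 with the GC offset. Of 42 collagen genes, the structural proteins of connective tissue, 30 were lower and 2 higher (median -3.44). Claudin genes, which seal epithelial junctions, had 7 of 22 higher and 4 lower. Of 339 genes for Slc transporters, 79 were higher and 53 lower, but 60 and 74 with the GC offset. Zinc finger genes named Zfp had 41 of 356 higher and 40 lower, and 17 and 113 with the offset. Of 9 Hox genes tested, which the cochlea is not known to use, 8 were higher in GFP+ and 1 lower. A gene with counts in GFP+ alone can enter the tests and can then hardly be called lower. The Hox figure is therefore not read as a result about these genes. The part of low-level counts in that figure was not tested.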
